A study of Mus musculus with 16 samples.

Results

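Accessible chromatin regions of *Morc1* knockout male germ cells of mouse embryos at stage E13.5 were compared with those of knockout germ cells at E16.5 (stages in days of embryonic development). The members are all 39559 peaks of the E13.5 knockout list and all 57117 peaks of the E16.5 knockout list, 96676 regions of 302829 in the 6 distinct peak lists of the study. A peak of one list that shared at least 1 bp with a peak of the other was called kept. An E13.5 peak with no shared base at E16.5 was called lost, and an E16.5 peak with no shared base at E13.5 was called gained. The same calls in the heterozygous pair of lists, with 94135 peaks, served to state which of these losses and gains were also seen with 1 intact *Morc1* allele.

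*Morc1* encodes an ATPase of the MORC family that takes part in silencing transposable elements in male germ cells, and males without it are infertile. Between the 2 stages, male germ cells of the mouse fetus, called gonocytes or prospermatogonia, leave the pluripotency-like programme of primordial germ cells, stop dividing and begin to methylate their genome anew. In ATAC-seq a transposase cuts open DNA and tags it for sequencing, so a peak marks a stretch of accessible chromatin, often a promoter or a distal regulatory element. A gene-end peak is here a peak within 1000 bp of either outer end of an annotated gene.

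The study profiled gonocytes from testes of Mvh-Venus transgenic mice, 16 samples in 8 groups of 2. All groups carry this transgene, a fluorescent germ-cell reporter named for the germ-cell gene *Mvh* (*Ddx4*). The groups used here are *Morc1* (-/-) and *Morc1* (+/-) gonocytes at E13.5 and E16.5, with postnatal days 0 and 3 (P0 and P3) as later stages. Each group is represented by 1 list, so no value has a spread between replicates and no test was possible. Every interval given is a 95% Wilson interval for counting error only, over peaks or, for motifs, over promoter windows. Peaks carry no height and read depth is unknown, so a called loss or gain cannot be told apart from a signal that crossed the calling threshold. A region open in fewer cells and a region less open in every cell cannot be told apart either. The P0 lists deposited for the 2 genotypes were identical, and so were the P3 lists. Each was used once, with no genotype attached.

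The cell type was checked against gene-end peaks of marker genes. Of 9 germ-cell genes, *Ddx4*, *Dazl*, *Dnd1*, *Mael*, *Sycp3* and *Kit* had a gene-end peak at both stages in knockout cells, *Pou5f1* only at E16.5, *Nanos3* only at E13.5 and *Dppa3* at neither. Of 12 Sertoli cell markers, *Clu*, *Dhh*, *Sox8* and *Wt1* had one at both stages and *Inhbb* at E16.5, whereas the defining genes *Sox9* and *Amh* had none. Of 7 Leydig cell markers, *Cyp11a1* and *Lhcgr* had one at both stages, and *Cyp17a1*, *Star* and *Insl3* had none. Of 14 interstitial, vascular and immune markers 6 had one at both stages, and the immune markers *Ptprc*, *Csf1r* and *Adgre1* had none. The number of somatic markers with a gene-end peak thus differed between the stages by 1 gene, *Inhbb*, and this gene gained its peak in heterozygous cells too. This depends on the measure. With a window of 500 bp *Inhbb* had no gene-end peak in either genotype. At transcription starts the Sertoli marker *Fgf9* lost a peak in both genotypes. A promoter of the interstitial marker *Tcf21* lost one in knockout cells and had none in heterozygous cells. The part of somatic cells in the results was not tested. The targeted gene kept its gene-end peak at both stages in knockout cells (chr16:48430945-48431445 at E16.5), so the lists hold no check of the knockout label at *Morc1* itself.

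The promoter sequences below show regions on which the comparison turns. They are RefSeq sequences (build GRCm38.p6), written 5' to 3' along the gene's own strand and limited to bases before the transcription start that lie outside the annotated gene. The first pair are promoters that were gained in both genotypes, and capitals mark the canonical E-box CACGTG, which reads alike on both strands. *Tdrd9* lies at chr12:111971309-111971487 (plus strand) and *Sohlh1* at chr2:25847249-25847498 (minus strand).
Tdrd9: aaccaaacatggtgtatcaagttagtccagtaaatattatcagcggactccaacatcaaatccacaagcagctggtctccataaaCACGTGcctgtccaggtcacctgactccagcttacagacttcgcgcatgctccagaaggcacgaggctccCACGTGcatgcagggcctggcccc
Sohlh1: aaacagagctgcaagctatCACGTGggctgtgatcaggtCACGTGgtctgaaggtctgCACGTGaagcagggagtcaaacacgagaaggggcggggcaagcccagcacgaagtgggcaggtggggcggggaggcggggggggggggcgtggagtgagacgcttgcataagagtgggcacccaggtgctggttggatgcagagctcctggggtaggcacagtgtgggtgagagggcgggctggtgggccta
The *Elf3* promoter, chr1:135258473-135258722 (minus strand), was lost in both genotypes. It belongs to no list of genes used here and was chosen after its calls were seen, as an example of a lost promoter with an octamer. Capitals mark the octamer ATTTGCAT, which appears here as ATGCAAAT, its reverse complement.
Elf3: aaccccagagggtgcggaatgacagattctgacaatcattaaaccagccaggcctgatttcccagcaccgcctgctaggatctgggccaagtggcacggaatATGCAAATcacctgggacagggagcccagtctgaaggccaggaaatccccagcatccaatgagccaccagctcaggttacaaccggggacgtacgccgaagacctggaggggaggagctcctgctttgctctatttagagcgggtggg
The *Pou5f1* promoter, chr17:35505782-35506031 (plus strand), was gained in both genotypes, and capitals mark the GC box GGGCGG.
Pou5f1: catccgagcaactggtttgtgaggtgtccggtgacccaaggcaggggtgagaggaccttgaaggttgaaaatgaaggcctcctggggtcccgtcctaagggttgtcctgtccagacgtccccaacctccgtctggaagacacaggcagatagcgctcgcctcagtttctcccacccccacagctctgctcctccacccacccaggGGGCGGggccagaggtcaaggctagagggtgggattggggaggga
The last pair show where the genotypes parted. The *Smad3* promoter, chr9:63757995-63758244 (minus strand), was lost in knockout cells and kept in heterozygous cells. The *Tcl1* promoter, chr12:105222738-105222987 (minus strand), was gained in knockout cells and absent from both heterozygous lists. Capitals again mark the GC box, as GGGCGG or as its reverse complement CCGCCC.
Smad3: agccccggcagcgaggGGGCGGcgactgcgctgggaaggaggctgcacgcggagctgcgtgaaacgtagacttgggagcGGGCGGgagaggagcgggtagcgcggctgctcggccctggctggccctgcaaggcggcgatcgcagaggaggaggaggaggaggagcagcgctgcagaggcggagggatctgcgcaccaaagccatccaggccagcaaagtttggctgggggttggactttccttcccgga
Tcl1: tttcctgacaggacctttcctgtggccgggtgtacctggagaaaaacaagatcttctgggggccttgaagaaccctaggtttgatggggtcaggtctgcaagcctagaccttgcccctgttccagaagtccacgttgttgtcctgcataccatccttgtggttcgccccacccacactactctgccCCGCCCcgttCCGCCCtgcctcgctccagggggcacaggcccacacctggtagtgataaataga

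Knockout gonocytes gained more regions than they lost between E13.5 and E16.5. Of the E13.5 peaks, 15573 of 39559 were lost (39.4%, interval 38.9 to 39.8) and 23986 were kept. Of the E16.5 peaks, 33131 of 57117 were gained (58.0%, interval 57.6 to 58.4), and the 23986 kept ones made up 42.0%. The kept peaks paired off one to one, and the centres of a pair lay a median of 37 bp apart (quartiles 16 to 80). In the heterozygous pair 43.3% of E13.5 peaks were lost (interval 42.8 to 43.8) and 57.3% of E16.5 peaks were gained (interval 56.9 to 57.7). The lost share was thus lower in the knockout lists, with intervals apart, whereas the intervals of the gained shares overlapped. These intervals hold counting error over peaks and no spread between replicates, so a difference between genotypes was not tested. The E16.5 list in which lost peaks were sought was also larger for knockout than for heterozygous cells (57117 against 53687 peaks). The part of this unlike size in the lost shares was not tested. Close to the boundary of the rule, 70 kept pairs shared under 50 bp, 610 lost peaks had an E16.5 peak within 500 bp, and 620 gained peaks had an E13.5 peak within that distance.

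Of the knockout-lost peaks, 9195 (59.0%, interval 58.3 to 59.8) were lost in heterozygous cells as well, and 6378 (41.0%, interval 40.2 to 41.7) were not. Most of the latter, 4959 peaks or 31.8% of the lost ones, were in neither heterozygous list. Another 1003 (6.44%) were in both heterozygous lists, and 416 (2.67%) were absent from heterozygous cells at E13.5 and present at E16.5, the opposite change. Of the knockout-gained peaks, 20350 (61.4%, interval 60.9 to 61.9) were gained in heterozygous cells and 12781 (38.6%, interval 38.1 to 39.1) were not. Here 10170 (30.7%) were in neither heterozygous list, 1931 (5.83%) in both and 680 (2.05%) only in that of E13.5. Read the other way, 8316 of 17519 heterozygous losses (47.5%) and 10402 of 30758 heterozygous gains (33.8%) had no counterpart in knockout cells. Losses and gains found in 1 genotype were therefore numerous in both directions, and whether their number exceeds that between replicate samples of 1 genotype was not tested.

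**Figure D1:**
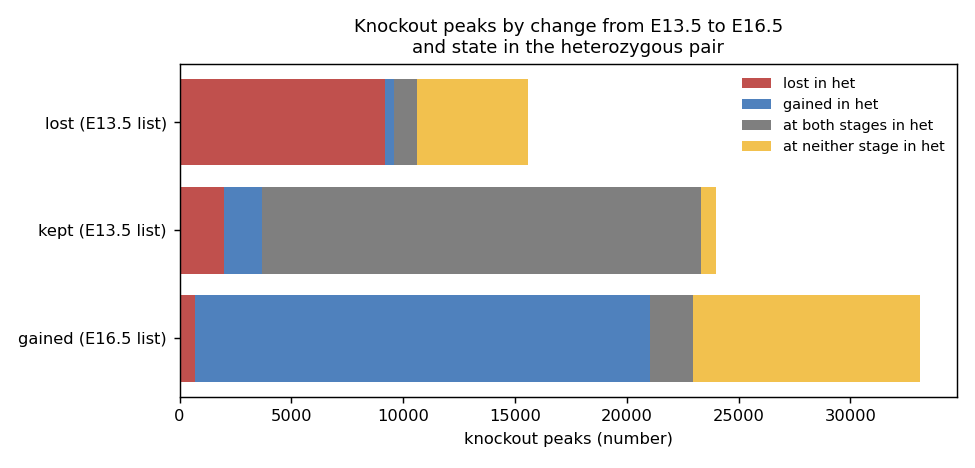
Number of knockout peaks called lost, kept or gained between E13.5 and E16.5 (bars), divided by the state of the same position in the heterozygous pair (colours; het stands for heterozygous). The largest segment of the lost bar is lost in heterozygous cells too (9195 of 15573), that of the gained bar gained there too (20350 of 33131), and the next largest of each is in neither heterozygous list.

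Kept regions lay mostly at gene ends, and lost and gained regions mostly away from them. A gene end was met by 53.0% of kept peaks, 12.8% of lost peaks (interval 12.3 to 13.3) and 11.3% of gained peaks (interval 11 to 11.6). The position of a RefSeq transcription start lay under 37.2% of kept, 3.88% of lost and 2.65% of gained peaks. The lost and the gained sets differed from each other in where their distal peaks lay. Of the lost peaks, 49.8% were inside a gene and away from its ends and 37.4% between genes, whereas of the gained peaks 29.4% were inside and 59.4% between genes. The median distance from a peak's centre to the nearest gene end was 850.5 bp for kept peaks (quartiles 101 to 10074.5), 11364 bp for lost peaks (quartiles 3699 to 29870) and 19599 bp for gained peaks (quartiles 5590 to 60379.5). With protein-coding genes alone, the shares at a gene end were 46% of kept, 6.74% of lost and 4.51% of gained peaks, and the median distances were 2404, 26663 and 75912 bp, so the lost and the gained set kept their order.

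Expressed as shares of all peaks at a given distance, gains were more common the farther a peak lay from a gene, up to 500 kb, while losses levelled off. Among E16.5 peaks within 1 kb of a gene end 21.3% were gained, from 1 to 10 kb 59.7%, from 10 to 50 kb 72.5%, from 50 to 100 kb 82.7% and from 100 to 500 kb 89.0% (interval 88.2 to 89.8). Among E13.5 peaks the lost shares in these classes were 12.3%, 49.4%, 57.9%, 59.1% and 56.6%, and the intervals of the last 3 overlapped. Beyond 500 kb, 9 of 20 E13.5 peaks were lost and 76 of 87 E16.5 peaks were gained. Heterozygous cells had higher lost shares than knockout cells in each class up to 500 kb (14.1% within 1 kb and 61.9% from 100 to 500 kb). The gained shares of the genotypes lay within 1 percentage point of each other in all 5 classes. The distance profile of gains was thus nearly the same with and without *Morc1*.

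**Figure D2:**
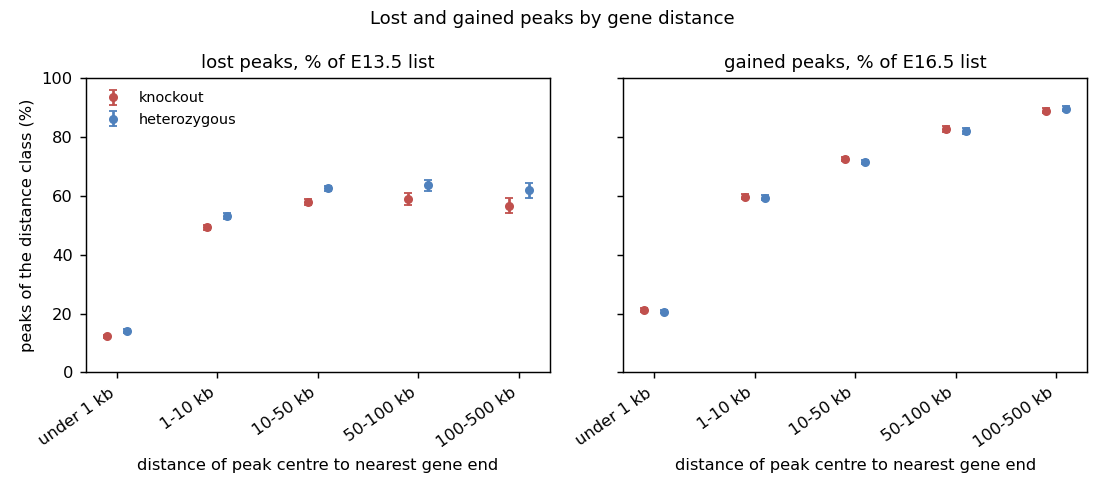
Share of E13.5 peaks lost (left) and of E16.5 peaks gained (right), in percent, by distance of the peak centre to the nearest gene end; points are knockout (red) and heterozygous (blue) lists and bars are 95% Wilson intervals. Gains increase from 21.3% within 1 kb to 89.0% at 100 to 500 kb in knockout cells, and the heterozygous lost shares lie above the knockout ones in each class.

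The losses and gains without a heterozygous counterpart were placed somewhat closer to genes than the shared ones. Of the 6378 knockout losses that were not heterozygous losses, 14.3% met a gene end (interval 13.4 to 15.2), against 11.8% of the 9195 shared losses (interval 11.1 to 12.4). Of the 12781 gains without a counterpart 12.5% met one (interval 12 to 13.1), against 10.5% of the 20350 shared gains (interval 10.1 to 10.9). For the gene-end share, this came mainly from positions where the heterozygous lists had a peak. A gene end was met by 25.3% of the losses that were kept in heterozygous cells (interval 22.7 to 28.1), but by 11.4% of those in neither heterozygous list (interval 10.6 to 12.3). Among gains the figures were 18.2% and 11.1%. The median distance of the unshared gains to a gene end was 15813 bp and that of the shared gains 22672 bp. For gains in neither heterozygous list it was 17396.5 bp, so the difference in distance was also present where heterozygous cells had no peak.

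Later lists were not used in the calls. The P0 list held most gained regions, the P3 list a minority of them, and both held few lost ones. At P0 86.8% of kept, 69.5% of gained (interval 69.0 to 70.0) and 13% of lost peaks were found, and at P3 83.8%, 40.9% and 16.4%. The order of the lost set was the reverse of the others, with more of it found at P3 than at P0. The P0 list held 67258 peaks and the P3 list 44760. The part of this unlike size in the shares was not tested. The state in heterozygous cells divided these shares. Losses in neither heterozygous list were found at P0 in 8.95% of cases, much like shared losses (9.58%), whereas losses kept in heterozygous cells were found in 50.2% (interval 47.2 to 53.3) and those with the opposite change in 45.7%. Shared gains were found at P0 in 79.6% of cases and gains kept in heterozygous cells in 80.1%. Gains in neither heterozygous list were found in 48.7% (interval 47.7 to 49.6), and in 20.4% at P3. Gains in neither heterozygous list were thus found at P0 less often than shared gains, with intervals far apart, whereas losses in neither heterozygous list and shared losses were found there at shares whose intervals overlapped. At P3 the shares of these 2 kinds of loss were 11% and 15.1%.

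**Figure D3:**
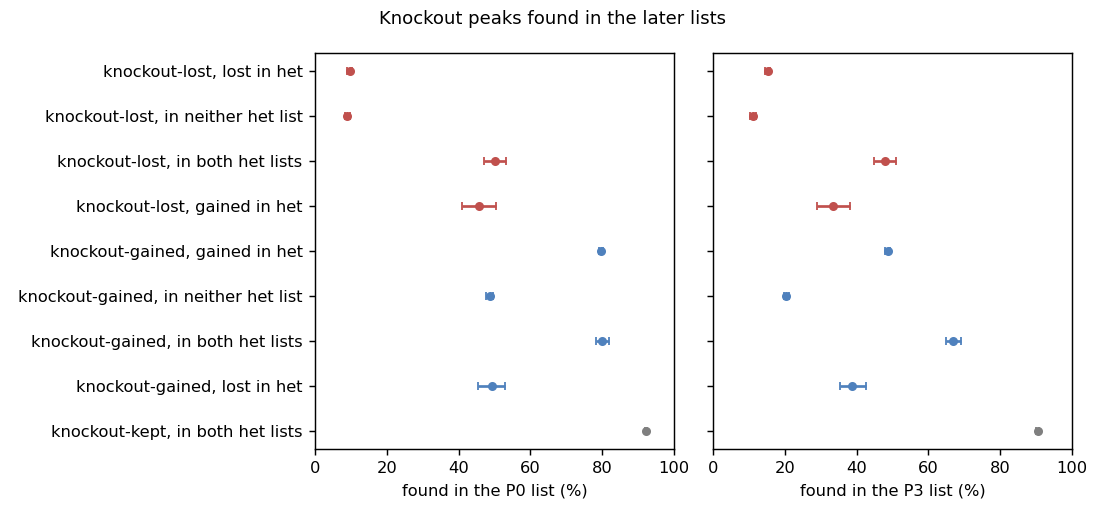
Share of knockout peaks (percent, horizontal axes) that overlap a peak of the P0 list (left) or the P3 list (right), by class and by state in the heterozygous pair; bars are 95% Wilson intervals. Shared gains (79.6% at P0) and gains kept in heterozygous cells (80.1%) lie far above shared losses (9.58%), and losses kept in heterozygous cells (50.2%) lie near gains in neither heterozygous list (48.7%).

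At the level of genes most protein-coding genes kept their state. Of 21887 genes, 12287 had a gene-end peak at both stages in knockout cells and 7923 at neither. A gene-end peak was lost at 634 of the 12921 genes that had one at E13.5 (4.91%) and gained at 1043 of the 13330 that had one at E16.5 (7.82%). At 36 of the former and 31 of the latter the peak was a kept one that had moved over the edge of the window. At transcription starts alone, among the 17492 genes with a promoter entry, 417 genes lost and 662 gained a peak. Of the 634 genes, 306 lost it in heterozygous cells too, 139 kept it there, 45 gained it and 144 had none. Of the 1043, 568 gained it in heterozygous cells too, 164 kept it, 47 lost it and 264 had none. Conversely, 258 genes that kept their peak in knockout cells lost it in heterozygous cells, and 184 gained it there.

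Genes of pluripotency, which gonocytes switch off in this period, went in both directions. Of 18 such genes, 12 had a gene-end peak at E13.5 and 12 at E16.5 in knockout cells, with 2 lost and 2 gained (16.7% each, beside 4.91% and 7.82% of all genes). *Lin28a*, whose product blocks maturation of let-7 microRNAs, lost its peak in knockout cells (chr4:134018871-134019371) and in heterozygous cells, and it was absent at P0 and P3. *Prdm14*, a regulator of germ-cell specification, did so as well (chr1:13126998-13127498). *Pou5f1*, which encodes OCT4, had a promoter peak in neither E13.5 list and in both E16.5 lists (chr17:35505655-35506155 in knockout cells), and it was found at P0 but not at P3. The 2 genotypes differed at 4 genes of this list. *Tcl1*, which encodes a cofactor of AKT, gained a promoter peak in knockout cells and had none in heterozygous cells (chr12:105222642-105223142), and this peak was found at P0 and P3. *Nanog* and *Sall4*, both transcription factor genes of the pluripotency network, kept their promoter peak in knockout cells (chr6:122707046-122707546 and chr2:168766905-168767405 at E16.5) and lost the matching peak in heterozygous cells. The *Sall4* region was found at P0 and P3 and the *Nanog* region at neither. *Dppa3*, known as Stella, had a gene-end peak in the E13.5 heterozygous list only, and the P0 list held one. Heterozygous cells lost a gene-end peak at 5 of these 18 genes and gained one at 1.

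Of 12 genes for specification and survival of primordial germ cells, 10 had a gene-end peak at E13.5 and 2 lost it, *Prdm14* and *Nanos3* (20%, beside 4.91% of all genes). *Nanos3*, an RNA-binding protein that protects migrating germ cells from death, had its peak at chr8:84176469-84176969 in the E13.5 knockout list and in none of the other lists. *Ifitm3*, also called Fragilis, counts as keeping a gene-end peak, but by different peaks. The peak over its start (chr7:141010519-141011019) was lost in both genotypes, and in knockout cells a peak past its other end (chr7:141008744-141009244) was gained. *Ddx4*, *Dazl*, *Dnd1*, *Kit*, *Cxcr4*, *Alpl* and *Prdm1* kept a gene-end peak in both genotypes.

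In the signalling that sets male germ-cell fate, Nodal and Activin act through receptors on SMAD2 and SMAD3, and the Lefty proteins oppose Nodal. Of 13 genes on this list 9 had a gene-end peak at E13.5 in knockout cells and 2 lost it (22.2%, beside 4.91% of all genes). *Nodal*, the ligand, kept its peak in knockout cells (chr10:61418002-61418502 at E16.5) and lost it in heterozygous cells (chr10:61417954-61418454 at E13.5), and it was found at P0. *Lefty1*, its antagonist, lost its peak in both genotypes (chr1:180934443-180934943 in knockout cells). *Smad3*, the transducer, lost its promoter peak in knockout cells only. It lay at chr9:63757920-63758420 in the E13.5 knockout list, at chr9:63757999-63758499 and chr9:63758023-63758523 in the heterozygous lists, and it was present at P0 and P3. The receptor genes *Acvr1b*, *Acvr2a* and *Acvr2b* and the transducer gene *Smad2* kept a peak in knockout cells. *Nodal* and *Smad3* thus differed between genotypes, each by the presence of 1 peak in 1 list.

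The piRNA pathway, which directs silencing and methylation to transposons in these cells, had 4 gained gene-end peaks and no lost one in knockout cells. Of 22 genes found, 14 had a peak at both stages and 4 had none. The 4 gains are 22.2% of the 18 genes open at E16.5, beside 7.82% of all genes, while at the 4.91% of all genes fewer than 1 loss would fall on 14 open genes. *Piwil1*, the PIWI protein of later germ cells, gained its promoter peak in both genotypes (chr5:128735774-128736274 in knockout cells), and it was found at P0 and P3. *Gtsf1*, a zinc-finger partner of PIWI proteins, did likewise (chr15:103430218-103430718), and *Tdrd9*, a Tudor-domain helicase, gained its promoter peak in both (chr12:111971334-111971834) and was found at P0 but not at P3. *Spocd1*, a nuclear factor that links piRNAs to DNA methylation, gained its peak in knockout cells (chr4:129928384-129928884) where heterozygous cells had one at both stages. *Morc1*, *Piwil4*, *Mov10l1*, *Mael*, *Tdrd5*, *Tdrd12*, *Asz1*, *Pld6* and *Tex15* were among the 14 with a peak throughout. In heterozygous cells 15 were kept, 3 gained and 1, *Fkbp6*, lost. At the *Fkbp6* promoter, away from that peak, a peak was gained in knockout cells and kept in heterozygous cells.

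Genes of chromatin modification had gene-end shares near those of all genes. Of 11 DNA methylation genes 8 kept a gene-end peak in knockout cells and 1 of the 9 open at E16.5 had gained it (11.1%, beside 7.82% of all genes). That gene was *Zfp57*, whose product protects imprints (chr17:37009660-37010160), and heterozygous cells had an overlapping peak at both stages. The knockout peak lay more than 500 bp from the gene end, and a peak at the *Zfp57* transcription start was kept in both genotypes. *Dnmt3l*, the cofactor of de novo methylation, and *Dnmt1*, the maintenance enzyme, had a gene-end gain in heterozygous cells only, but with a window of 500 bp neither had a gene-end peak in any of the 4 lists. The heterozygous *Dnmt3l* peak was itself a kept one that moved over the edge of the window. At another RefSeq promoter of *Dnmt3l* a peak was gained in both genotypes. At a RefSeq promoter of *Dnmt3a*, which had no gene-end peak, a peak was lost in both genotypes. Of 23 genes of H3K9 methylation and heterochromatin 21 were kept and 1, *Ehmt2* (G9a), gained a peak in both genotypes (4.55% of those open at E16.5). The 2 *Ehmt2* peaks lay at opposite ends of the gene, at chr17:34914118-34914618 in knockout and chr17:34898654-34899154 in heterozygous cells. *Cbx3*, which counts as keeping a gene-end peak, lost the peak over a RefSeq promoter in both genotypes. All 4 MORC family genes with a gene-end peak kept it in both genotypes, and *Morc2b* had none at its outer ends, though a RefSeq promoter of it gained a peak in both genotypes.

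Genes of spermatogonial stem cells and of later differentiation lay on both sides. Of 20 self-renewal genes 2 were lost (*Bcl6b* and *Lhx1*), 2 gained (*T* and *Sohlh1*) and 12 kept. That is 14.3% of the 14 open at E13.5 and 14.3% of the 14 open at E16.5, beside 4.91% and 7.82% of all genes. With so few genes, these shares rest on single peaks. *Bcl6b*, a transcriptional repressor that responds to GDNF, lost its peak in both genotypes (chr11:70230268-70230768), and it was found again at P0. *Lhx1*, a LIM homeobox gene, lost the peak at chr11:84525886-84526386 in both genotypes. Heterozygous cells gained another (chr11:84525316-84525816), so the gene counts as kept there. *T*, which encodes Brachyury, gained a peak in both (chr17:8433851-8434351) that P0 and P3 lacked. *Sohlh1*, a helix-loop-helix factor of spermatogonial differentiation, gained its promoter peak in both (chr2:25847059-25847559), and it was found at P0 and P3. *Gfra1*, the GDNF receptor, had a peak in the E13.5 heterozygous list only. *Rarg*, a retinoic acid receptor, kept a peak in knockout cells and gained it in heterozygous cells, and *Dmrtb1* gained one at its outer ends in heterozygous cells only. The RefSeq promoter of *Dmrtb1* had a peak at both stages in knockout cells and gained it in heterozygous cells.

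Meiotic genes lost a gene-end peak about as often as all genes did, 1 of 23 open at E13.5 (4.35%, beside 4.91%). Of 25 such genes 22 kept a gene-end peak in both genotypes, 2 had none and 1, *Spo11*, which makes the DNA breaks of recombination, lost it in both (chr2:172977325-172977825). Of 27 cell cycle genes 23 were kept and 1 of the 24 open at E13.5 was lost (4.17%). Among those kept were *Cdkn1b*, *Cdkn1c*, *Cdkn2a*, *Cdkn2b*, *Cdkn2c*, *Cdkn2d*, *Rb1*, *Rbl1* and *Rbl2*. *Ccnd3*, a D-type cyclin, lost a peak in knockout cells that lay over 500 bp inside its end (chr17:47598204-47598704), while the peak at its start was kept in both genotypes. *E2f2* kept a peak in knockout cells that heterozygous cells gained. Of 12 widely expressed genes 9 kept a gene-end peak in both genotypes.

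**Figure D4:**
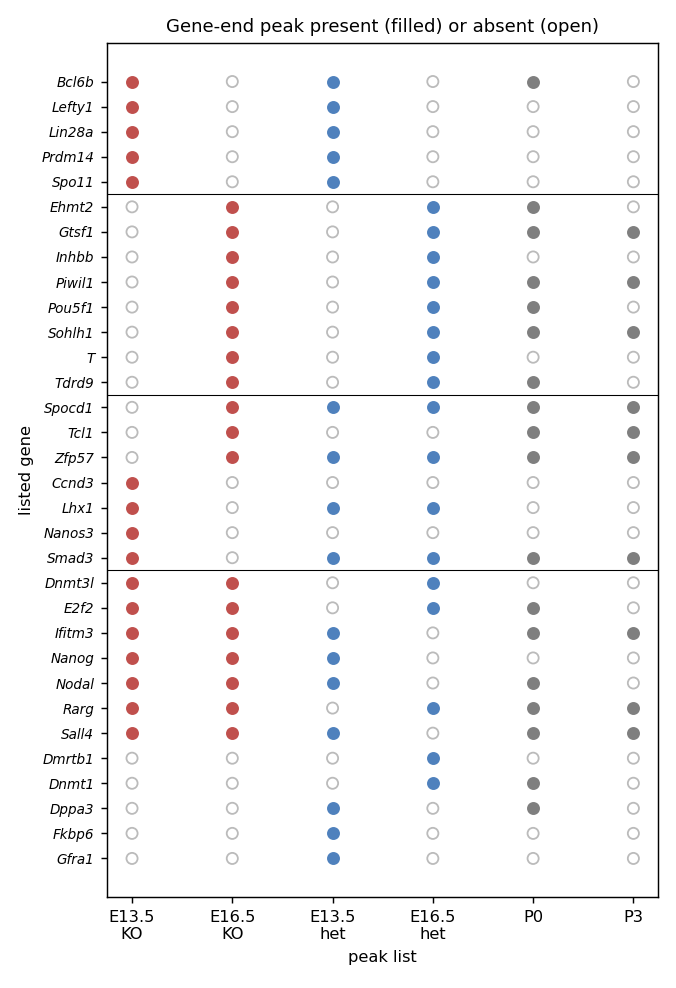
Presence (filled) or absence (open) of a gene-end peak in each of 6 peak lists (columns: KO knockout, het heterozygous) for 32 listed genes lost or gained in at least 1 genotype; horizontal lines divide genes lost in both, gained in both, lost or gained in knockout without the same change in heterozygous cells, and changed in heterozygous cells alone. Of these genes, 5 were lost in both genotypes and 8 gained in both.

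By nearest protein-coding gene, more gained than lost peaks were found around single genes. The 33131 gained peaks had 8761 nearest genes, of which 256 had 20 or more. The 15573 lost peaks had 7455, of which 3 had 20 or more. The gene with most gained peaks was *Pcdh7*, a protocadherin, with 187. It had 11 peaks nearest to it at E13.5 and 193 at E16.5. Of its gained peaks 16 lay inside the gene, the farthest was 1823 kb away, 36 were not gained in heterozygous cells, and 148 were found at P0. It was followed by *Pcdh9* with 145 gained peaks, the glutamate receptor gene *Grik2* with 139, *Pcdh17* with 131, *Pcdh20* with 122, the cadherin gene *Cdh9* with 118, *Adgrl3* with 117, *Lrrc4c* and *Ncam2* with 115 each, *Cntnap5b* with 106, *Ptprd* with 101 and *Cntnap5a* with 100. These 12 genes had 4.52% of all gained peaks.

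The gene with most lost peaks was *Adgrl2*, an adhesion receptor of the latrophilin type, with 29. The number of peaks nearest to it went down from 34 at E13.5 to 11 at E16.5, and 16 of its lost peaks were found again at P3 but 7 at P0. *Tenm3* had 21 lost peaks, *Tenm2* 20, and *Gpc5* and *Sox5* 19 each. *Fhit* followed with 17, *Nrxn3*, *Ptprg* and *Robo1* with 16 each, and *Diaph3* and *Pcdh9* with 15 each. Several of these genes had more gains than losses, for example *Tenm3* with 93 gained peaks, *Gpc5* with 82 and *Pcdh9* with 145, whereas *Adgrl2* (6), *Tenm2* (8) and *Ptprg* (11) had fewer. *Ptprg* spans 689 kb and *Fhit* and *Nrxn3* 1612 kb each, so a nearest gene is a place name here, not a target.

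Among losses without a heterozygous counterpart *Gpc5* had 12, *Adgrl2* 11, *Arrdc3* and *Pcdh9* 9 each, *Camta1*, *Nav1*, *Nrxn3*, *Pcdh20*, *Ptprg*, *Tafa2* and *Tenm3* 8 each, and *Flrt2* 7. For *Flrt2* that was 7 of 8 lost peaks, for *Pcdh20* 8 of 10, and for *Camta1* 8 of 11, beside 41.0% of all lost peaks. For *Adgrl2* it was 11 of 29 and for *Tenm3* 8 of 21, both below that share. Among gains without one *Pcdh9* had 37 of its 145 gained peaks, *Pcdh7* 36 of 187 and *Slitrk5* 34 of 94. *Cadm2* had 31 of 89, *Nrg3* 31 of 82, *Tenm3* 31 of 93 and *Csmd3* 30 of 92. *Cdh9* had 29 of 118, *Epha7* 29 of 98, *Gpc5* 29 of 82, *Ncam2* 29 of 115 and *Pcdh20* 29 of 122. Each of these shares was below the 38.6% of all gained peaks that had no heterozygous counterpart. At *Pcdh9* 21 of the 37 gains were found at P0.

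Some gene families differed widely from the 58.0% of all E16.5 peaks that were gained, and others lay near it. Of 722 E16.5 peaks nearest to an olfactory receptor gene 631 were gained (87.4%, interval 84.8 to 89.6), and of 391 nearest to a vomeronasal receptor gene 347 (88.7%, interval 85.2 to 91.5). In both families most gained peaks were found at P0, 492 and 295 of them, and 196 and 96 were not gained in heterozygous cells (31.1% and 27.7%, beside 38.6% of all gained peaks). At the other end stood ribosomal protein genes with 40 of 144 (27.8%) and replication-dependent histone genes with 5 of 32 (15.6%). Zinc finger genes named *Zfp* had 428 of 943 (45.4%). Near the share of all peaks lay *Hox* genes with 24 of 41 (58.5%, interval 43.4 to 72.2). Clustered protocadherins, with 19 of 35 (54.3%, interval 38.2 to 69.5), lay near it too. Among ribosomal protein genes 74 of 81 kept a gene-end peak in both genotypes, and *Rpl19* lost one in both.

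Counted by gene, the *Hox* genes, which pattern the body axis, showed gains and no losses at their gene ends in knockout cells. Counted by peak they had losses too, near the share of all peaks. Of 31 E13.5 peaks nearest to a *Hox* gene 14 were lost (45.2%, interval 29.2 to 62.2, beside 39.4% of all). Of these 14, 9 were not lost in heterozygous cells, beside 41.0% of all lost peaks. Of 39 genes 10 had a gene-end peak at both stages and 11 had one at E16.5 alone, at 10 distinct peaks (52.4% of the 21 with a peak at E16.5, beside 7.82% of all genes). *Hoxa7*, *Hoxa10*, *Hoxb13* and *Hoxc11* gained theirs in both genotypes. *Hoxb1* (chr11:96365539-96366039) and *Hoxc8* (chr15:102990575-102991075) had one in neither heterozygous list. *Hoxa5*, *Hoxa6* and *Hoxb9* went the opposite way in heterozygous cells. A peak between *Hoxa5* and *Hoxa6* lay at chr6:52204369-52204869 in the E16.5 knockout list and at chr6:52204354-52204854 in the E13.5 heterozygous list, and in neither of the other embryonic lists. *Hoxc6* counts as gained through a kept peak that moved over the edge of the window. In heterozygous cells 3 *Hox* genes lost a gene-end peak and 7 gained one. Of 24 gained peaks nearest to a *Hox* gene, 17 were not gained in heterozygous cells (70.8%, beside 38.6% of all gained peaks).

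Counted by gene, the clustered protocadherins, neuronal surface proteins encoded in tandem, showed more losses than gains at their gene ends. Counted by peak they lay near all peaks. Of the E13.5 peaks nearest to them 14 of 30 were lost (46.7%, interval 30.2 to 63.9, beside 39.4% of all). Of the E16.5 peaks 19 of 35 were gained (54.3%, beside 58.0% of all). Of 33 genes with a gene-end peak at E13.5, 17 lost it (51.5%, beside 4.91% of all genes), and 5 of 21 at E16.5 had gained it. The 17 losses rest on 8 distinct peaks, because the genes lie so close that 1 peak is near the ends of several. Most of the 17 genes share 1 lost peak, chr18:37842345-37842845, at the common end of the gamma genes. The share of genes thus counts this peak many times. Of the 17, 11 were lost in heterozygous cells as well, among them *Pcdha3*, *Pcdhga1*, *Pcdhga12* and *Pcdhgc5*. *Pcdha1* kept a peak in heterozygous cells. At E13.5 that peak (chr18:36930595-36931095) shared no base with the lost knockout peak (chr18:36930010-36930510). *Pcdha12* and *Pcdhb4* had none in heterozygous cells. *Pcdhga6*, *Pcdhga11* and *Pcdhgb2* count as kept in heterozygous cells, but by different peaks: the E13.5 peak they share was lost there as well, and each gained another by E16.5. The gains fell in the beta cluster, at *Pcdhb2*, *Pcdhb9*, *Pcdhb10*, *Pcdhb12* and *Pcdhb15*. Of the 17 genes that lost a peak, 15 had one at P0. The genes that share 1 lost peak are among these 15, so they need not be separate regions.

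Promoters that were lost or gained had fewer CpG dinucleotides than kept ones. Of 32817 RefSeq promoter windows of 300 bases (250 before and 50 after the start), 12036 were under a kept knockout peak, 802 under a lost one and 1113 under a gained one. The median number of CpG dinucleotides in a window was 23 in kept, 10 in lost and 8 in gained promoters, beside 3 in promoters with no peak, and the median GC content was 62.7%, 55.7%, 54.0% and 47.7%. The GC box GGGCGG (either strand, like the motifs that follow) was in 70.1% of kept, 44.6% of lost and 34.1% of gained promoters and in 35.6% of all promoters. Of the lost promoters 389 were not lost in heterozygous cells, and these were richer in CpG (median 12) than the 413 lost in both (median 8).

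Among 12 motifs searched by their letters, some differed between the shared and the unshared sets. The octamer ATTTGCAT, bound by POU factors such as OCT4, was in 23 of 413 promoters lost in both genotypes (5.57%, interval 3.74 to 8.22), in 7 of 389 lost in knockout cells and not in heterozygous cells (1.80%, interval 0.874 to 3.67), and in 1.74% of all promoters. *Elf3* is one of the 23. These 2 intervals are barely apart. The units are promoter windows, and the 413 came from 380 genes and the 389 from 355. A gene with several starts can thus count more than once, which the intervals leave out. The canonical E-box CACGTG was in 76 of 596 promoters gained in both genotypes (12.8%, interval 10.3 to 15.7), in 38 of 517 gained in knockout and not in heterozygous cells (7.35%, interval 5.40 to 9.93), in 10.7% of kept promoters and in 7.15% of all promoters. *Tdrd9*, *Sohlh1*, *Piwil1* and the gained *Dnmt3l* promoter hold it. CCACACCC was in 44 of the 596 (7.38%, interval 5.55 to 9.77) and in 3.56% of all promoters. CCAAT was in 92 of the 389 promoters lost without a heterozygous loss (23.7%, interval 19.7 to 28.1), in 34.4% of those lost in both and in 37.4% of all. The core motif of NRF1, searched by its letters, was in 11% of kept promoters, 3.24% of lost, 2.70% of gained and 4.59% of all ones. Base composition differs between these sets, a motif match is a description of letters in the window and not of binding, and the part of base composition in these shares was not tested.

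Gains were concentrated where genes are sparse, in both genotypes. In 1 Mb windows with 0 or 1 protein-coding gene 86.5% of E16.5 knockout peaks were gained (interval 85.9 to 87.1), in windows with 2 to 5 genes 65.4%, with 6 to 10 genes 50.4%, with 11 to 19 genes 40.3%, and with 20 or more 34.3% (interval 33.3 to 35.3). The lost shares over the same classes were 51.6%, 46.8%, 41.2%, 36.7% and 26.8%. Heterozygous gains were 86.7% in the poorest and 34.0% in the richest class.

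In knockout cells chromosome 11 and the X chromosome stood at opposite ends. Of the E16.5 knockout peaks on chromosome 11, 34.1% were gained (interval 32.1 to 36.2), the lowest share of any autosome, beside an autosomal median of 56.9% and a highest autosome of 67.2% (chromosome 14). On the X chromosome 70.2% were gained (interval 68.3 to 72.0) and 30.0% of its E13.5 peaks were lost (interval 27.2 to 33.0), below all autosomes (32.0% to 47.3%). The X chromosome thus had 2.35 times as many peaks at E16.5 as at E13.5 in knockout cells and 1.80 times as many in heterozygous cells, while chromosome 11 had 0.922 and 0.758 times as many. In heterozygous cells the X chromosome was not at the end of the range: 64.6% of its E16.5 peaks were gained, below chromosome 14 (68.9%), and 36.4% of its E13.5 peaks were lost, beside 36.2% on chromosome 7. The share of chromosome 11 was below that of the other autosomes in each of the 5 classes of gene density. It was 73.1% in the poorest windows, where the other autosomes had 86.4%, and 24.7% in the richest, where they had 35.4%. The X chromosome was above the other autosomes in windows with 0 or 1 gene (95%) with 2 to 5 genes (79.0% against 64.7%) and with 6 to 10 genes (56.7%, interval 51.8 to 61.4, against 50.7%), but not in windows with 11 to 19 (41.0% against 40.9%).

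Chromosome 11 also had the highest share of knockout gains without a heterozygous counterpart, 453 of 721 (62.8%), followed by chromosome 19 with 218 of 400 (54.5%). The other autosomes ranged from 31.5% (chromosome 3) to 46.8% (chromosome 18), and the X chromosome had 39.9%. The 351 chromosome 11 gains that were in neither heterozygous list were found at P0 in 61.5% of cases (interval 56.4 to 66.5), compared with 47.8% (interval 46.8 to 48.8) on the other autosomes and 54.5% (interval 50.4 to 58.6) on the X chromosome.

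**Figure D5:**
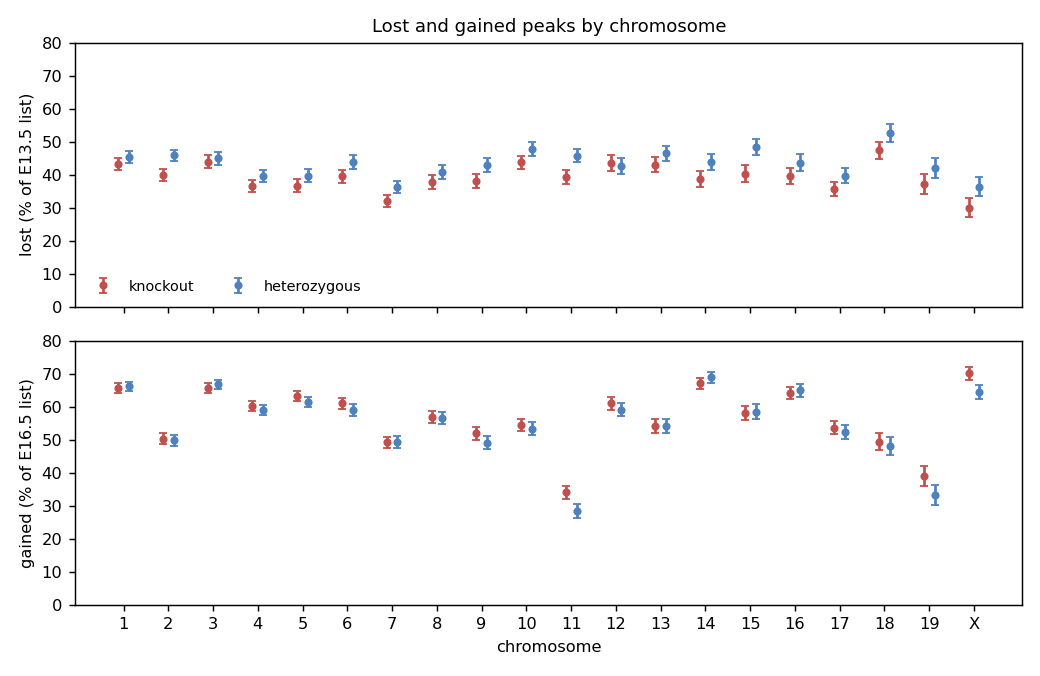
Share of E13.5 peaks lost (top) and of E16.5 peaks gained (bottom), in percent, on each chromosome in knockout (red) and heterozygous (blue) lists, with 95% Wilson intervals; the Y chromosome, with 7 and 18 knockout peaks, is left out. Chromosome 11 has the lowest gained share in both genotypes (34.1% and 28.4%), and the X chromosome has the highest in knockout cells (70.2%).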

How the data were processed

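ATAC-seq peak lists of *Morc1* (-/-) and *Morc1* (+/-) gonocytes were used, 1 list for each group of 2 samples. Per the submitters' processing notes, the authors' tools were bcl2fastq 2.20, cutadapt 1.18, Bowtie2 2.3.4.1, deepTools 3.5.0 and HOMER 4.10, with genome build mm10; their roles are not listed there. The deposited files give coordinates of regions 501 bp wide and no score. The peak threshold, the way samples were pooled and the read depth are not given in the sources used here, so p-values, tests and replicate errors could not be had.

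Lists were compared by overlap of at least 1 bp in Python 3.11.15 (numpy 2.4.6, pandas 2.3.3, figures with matplotlib 3.10.9), and bedtools 2.31.1 gave equal counts in 4 comparisons. The state of a knockout peak in heterozygous cells was read from its overlap with each of the 2 heterozygous lists. Wilson intervals came from scipy 1.17.1. Genes and promoters came from RefSeq tables of build GRCm38 (the build that mm10 names), with 49943 annotated genes, 21887 of them protein-coding and 17492 of these with a promoter entry. Distances run from a peak's centre to the nearest outer end of any annotated gene. Gene density is the number of protein-coding genes in fixed 1 Mb windows. *Dnmt3c* did not match the gene table. Some genes that the rule names are not reported here. The counting scripts were tested on simulated data.

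The text names members of lists by function, with positions for those whose gene-end peak was lost or gained, the 12 nearest protein-coding genes with most peaks of each kind, and 7 gene families taken by symbol. The members and lists were chosen with earlier results of these data known. Alternatives were a reciprocal overlap of 50%, peaks within 500 bp counted as kept, autosomes only, a 500 bp gene-end window, protein-coding genes only, transcription starts only, and a stricter reading of the heterozygous state.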

Additional observations from a re-analysis of the deposited data

How the results depend on the processing

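No paired analysis was possible because each group has 1 peak list and no column carries a replicate number; for the same reason no replicate could be left out, and with no score no stricter peak threshold could be run. None of the results has a test. Of 70 alternative values 28 stayed within the counting interval of the main value (for counts, within 1.5 times of it) and 42 did not.

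With a reciprocal overlap of 50%, 41.5% of E13.5 peaks were lost and 59.5% of E16.5 peaks gained, and 42.2% of losses and 41.1% of gains lacked a heterozygous counterpart. Gene ends then held 14.5% of lost and 12.2% of gained peaks, and 16.8% and 13.8% of those without a counterpart; 58.5% of gained peaks lay between genes. Median distances were 10919 bp for lost and 19002 bp for gained peaks. At P0 84.9% of kept and 65.8% of gained peaks were found, and at P3 17.2% of lost, 82.7% of kept and 38.4% of gained peaks.

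With peaks within 500 bp counted as kept, 37.8% were lost and 56.9% gained, and 37.8% of gains lacked a counterpart. At P0 13.7% of lost, 87.9% of kept and 71.5% of gained peaks were found, and at P3 41.9% of gained peaks. On autosomes alone 57.5% of E16.5 peaks were gained. Both readings of the heterozygous state gave the same shares within counting error.

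With a 500 bp window gene ends held 9.33% of lost, 49% of kept and 8.66% of gained peaks, and 10.7% and 9.56% of losses and gains without a counterpart. With protein-coding genes alone the gene-end shares were 6.74%, 46% and 4.51%, and 8.04% and 5.34% without a counterpart. The shares between genes were then 47.8% of lost, 29.9% of kept and 71% of gained peaks, and the median distances 26663, 2404 and 75912 bp. At transcription starts alone 417 genes lost and 662 gained a peak, among the 17492 genes with a promoter entry. Median distances were larger for lost and gained than for kept peaks under the 3 alternatives in which distance was recomputed (reciprocal overlap, autosomes and protein-coding genes). Depth limits all calls to presence or absence above an unknown threshold.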

Other observations

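MicroRNA hairpins, the precursors cut into short regulatory RNAs, were described by the peaks within 1000 bp of them. In knockout cells such a peak was kept at 102 hairpins that kept one in heterozygous cells too, and 805 hairpins had none in any of the 4 embryonic lists. A peak was gained in both genotypes at 23 hairpins, among them *Mir9-1*, *Mir184*, *Mir199b* and *Mir425*, and lost in both at 17, among them *Mir10b*, *Mir128-2*, *Mir191* and *Mir200c*. *Mir191* and *Mir425* are neighbours, so this is 1 locus with a lost and a gained peak. Gains with no heterozygous peak at either stage were found at 9 hairpins, among them *Mir10a* and the neighbours *Mir181a-1* and *Mir181b-1*. Losses with none there were found at 10, among them the neighbours *Mir99a* and *Mirlet7c-1*. At 3 hairpins the genotypes went opposite ways. *Mir138-2* lost its peak in knockout cells and gained it in heterozygous cells, and *Mir125b-1* and *Mir199a-2* did the reverse. These are counts of hairpins and not of distinct peaks, since neighbours such as *Mir3093* and *Mir9-1* can share 1 peak. They were not compared with the shares of all genes that lost or gained a gene-end peak (4.91% and 7.82%). No excess or lack of change at hairpins is therefore read from them. Whether a peak belongs to the hairpin or to a gene around it was not tested. The named hairpins were chosen after their calls were seen.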
